A study of Mus musculus with 6 samples.

Results

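Basophils and mast cells are the granule-bearing cells of IgE-driven reactions, and 10 genes of these cells were followed in a myeloid progenitor fraction of mouse bone marrow: Mcpt8, Prss34, Hdc, Cpa3, Fcer1a, Ms4a2, Cyp11a1, Slc18a2, Il1rl1 and Cd200r3. Members were the listed genes that have a probe set annotated with exactly 1 gene symbol, which held for 9 of the 10, out of 19938 such genes on the array. Il1rl1, the receptor of IL-33, was not analysed here. Each of the 9 had 1 such probe set, and all 9 were among the 13956 genes tested. The lowest 30% of genes by their mean over all arrays, those at a log2 value of 5.11 or less, were left out of the test.

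The samples were 3 MYB knockdown mice and 3 wild type mice, with 1 Affymetrix array per mouse. All were male, 4 weeks old and C57BL6, and in every mouse the cells were sorted from bone marrow as Kit+, CD11b+ and lineage-low, a gate abbreviated K11bL. The labels do not say by which allele or method MYB was lowered, and they do not name the lineage antibodies, so it is not known here whether the gate removes basophils. The title calls the cells myeloproliferative, and the design implies 1 comparison, knockdown against wild type. The array of knockdown mouse 3 stood apart, with correlations over all probe sets of 0.977 and 0.984 with the other knockdown arrays, where the remaining pairs within a group had 0.993 to 0.995.

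Both cell types store proteases, histamine and proteoglycan in granules and carry FcεRI, the high-affinity receptor for IgE, which is built from an IgE-binding alpha chain, a signal-amplifying beta chain and a shared gamma chain. Cross-linking of bound IgE releases the granules. Progenitors of the marrow give rise to basophils and mast cells under GATA factors, and basophil output is driven by IL-3.

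The 9 genes moved in both directions. The basophil proteases Mcpt8 and Prss34, the histamine-forming enzyme Hdc and the granule carboxypeptidase Cpa3 were lower in the knockdown, and the IgE-binding chain Fcer1a and the surface receptor Cd200r3 were higher. In the fit over all genes 4 of the 9 fell (against 5.48% of all genes tested) and 2 rose (against 6.12%), while Ms4a2, Slc18a2 and Cyp11a1 were not called. Of the 2 that rose, Cd200r3 passed the filter on dim genes only through its knockdown values (wild type mean 4.85). Its place in that count therefore rests on the group where it is high. After median centring of the arrays the same members were called, against 4.25% of all genes lower and 10.3% higher. Without knockdown mouse 3, 4 fell (against 10% of all genes) and 3 rose, with Slc18a2 added (against 17.1%). The calls of the rises were less stable than those of the falls. Limma called 0 members higher without knockdown mouse 2 (against 3.07% of all genes), wild type mouse 2 (2.21%) or wild type mouse 3 (2.56%). Without knockdown mouse 1 it called 1 higher, Fcer1a (5.54%). Of the falls, only that of Cpa3 lost its call, without wild type mouse 1. The groups did not overlap, with all knockdown mice lower, for 4 members (14.4% of all genes) and, with all knockdown mice higher, for 2 (19.9%). In either direction this held for 34.3% of all genes. The differences of the 9 ran from -3.47 to 2.01 on the log2 scale with a median of 0.01, and the median over all genes tested was 0.02.

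The stretches before the transcription starts of 4 members are printed because Mcpt8 and Prss34 had the largest falls of the set and Fcer1a and Cd200r3 were its only called rises. Each run is the 250 bases before the start that the promoter table uses, 5′ to 3′ on the gene's own strand, from RefSeq on GRCm38.p6. Capitals mark GATA motifs, searched on both strands as the letters AGATAA or AGATAG, or the letters TGATAA or TGATAG, so a match on the other strand reads as its reverse complement.
Mcpt8, chr14:56085198-56085447, minus strand: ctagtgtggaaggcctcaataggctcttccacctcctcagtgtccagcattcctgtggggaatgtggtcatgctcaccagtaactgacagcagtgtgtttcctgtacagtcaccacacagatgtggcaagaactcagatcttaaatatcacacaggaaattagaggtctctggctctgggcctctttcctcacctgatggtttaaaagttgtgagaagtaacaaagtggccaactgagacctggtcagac
Prss34, chr17:25298144-25298393, plus strand: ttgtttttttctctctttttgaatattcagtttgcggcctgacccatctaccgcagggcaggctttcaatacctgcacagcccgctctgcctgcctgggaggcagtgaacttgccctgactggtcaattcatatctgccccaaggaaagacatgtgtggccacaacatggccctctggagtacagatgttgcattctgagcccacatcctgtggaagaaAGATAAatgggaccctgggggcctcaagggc
Fcer1a, chr1:173227230-173227479, minus strand: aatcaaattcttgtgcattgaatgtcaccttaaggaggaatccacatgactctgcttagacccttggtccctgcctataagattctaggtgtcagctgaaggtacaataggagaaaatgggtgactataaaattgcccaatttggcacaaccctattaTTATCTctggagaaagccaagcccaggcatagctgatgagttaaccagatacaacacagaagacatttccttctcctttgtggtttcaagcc
Cd200r3, chr16:44943428-44943677, plus strand: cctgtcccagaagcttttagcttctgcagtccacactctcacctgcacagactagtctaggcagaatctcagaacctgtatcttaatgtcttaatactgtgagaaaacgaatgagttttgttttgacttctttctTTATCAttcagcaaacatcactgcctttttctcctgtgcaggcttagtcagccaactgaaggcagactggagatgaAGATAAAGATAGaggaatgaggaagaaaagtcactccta

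The start used for Prss34 is the outer limit of the annotated gene. Those of Fcer1a, Cd200r3 and Mcpt8 lie 3, 82 and 302 bases inside it, so the Mcpt8 window falls wholly within the annotated gene and the stretch before its outer limit was not searched. Mcpt8 holds no GATA motif in this window. Prss34 has 1, whose first base lies 31 bases before the start, Fcer1a has 1 at 92 bases, and Cd200r3 has 3, at 115, 39 and 33 bases. All 10 listed genes were matched to the promoter table, Cyp11a1 and Il1rl1 with more than 1 start, and 10 of their 12 windows hold the motif. The motif is in 26.5% of the 32851 windows of the same length in the table. Windows with the motif belong to genes that fell (Prss34, Hdc, Cpa3), rose (Fcer1a, Cd200r3) and were not called (Ms4a2, Slc18a2, and the inner start of Cyp11a1), and to Il1rl1, which was not analysed here. The windows of Hdc, of the inner start of Cyp11a1 and of both starts of Il1rl1 also lie wholly inside the annotated gene. AACNG, the core letters of a MYB site, is in 8 of the 12 windows and in 74.2% of all windows, and the E-box CANNTG is in 10 of the 12 and in 66.2% of all. Matches of different motifs may overlap. Each is a description of the letters and not a site.

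Mcpt8 encodes a granule protease that in mice marks basophils. Its log2 values were 7.44, 7.48 and 7.43 in knockdown mice 1 to 3 and 11.12, 10.71 and 10.45 in wild type mice 1 to 3. The knockdown mice lay within 0.05 of each other and all of them far below the lowest wild type mouse. Mcpt8 averaged 7.45 ± 0.03 in the knockdown and 10.76 ± 0.34 in wild type (SD, n = 3 each). It fell by 3.31 ± 0.16 (SE), or 9.93-fold, with an adjusted p of 1.98e-05 in limma, the 12th largest fall of the 13956 genes. In RNA of a sorted fraction, fewer cells that make it and less of the RNA per cell cannot be told apart. Which cells of the Kit+ gate made it, basophils or progenitors, was not tested.

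Prss34 encodes the other basophil protease of the set, from a tryptase-like cluster of genes. It had values of 6.72, 6.01 and 6.89 in the knockdown mice and 10.59, 9.84 and 9.60 in the wild type mice. Knockdown mouse 2 was the lowest, and the groups were far apart. The means were 6.54 ± 0.47 in the knockdown and 10.01 ± 0.52 in wild type (SD, n = 3 each), and Prss34 fell by 3.47 ± 0.29 or 11.1-fold (adjusted p = 0.000273), the 10th largest fall of all genes tested. Mcpt8 and Prss34 both kept their call under every alternative run.

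Cpa3, the carboxypeptidase of mast cell granules, which is also made by basophils and by early progenitors, moved far less. Values of 10.43, 10.21 and 10.62 were measured in the knockdown mice, against 11.09, 10.94 and 11.01 in the wild type mice. All knockdown mice were lower, and the gap to the wild type mice was small. Cpa3 fell by 0.59 ± 0.11 or 1.51-fold (adjusted p = 0.0103), and without wild type mouse 1 the adjusted p was 0.0642 (1.24e-05 to 0.0642 over all alternatives). Its probe set is brighter than that of 97.53% of genes, and bright probe sets can understate a change, but whether this held for Cpa3 was not tested. Within each mouse the log2 value of Mcpt8 minus that of Cpa3 was lower in every knockdown mouse than in any wild type mouse, with a difference of -2.72 between the groups (two-sided exact permutation test, p = 0.1, the smallest p that 3 against 3 allows, and 0.1 adjusted over 3 such contrasts).

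**Figure D1:**
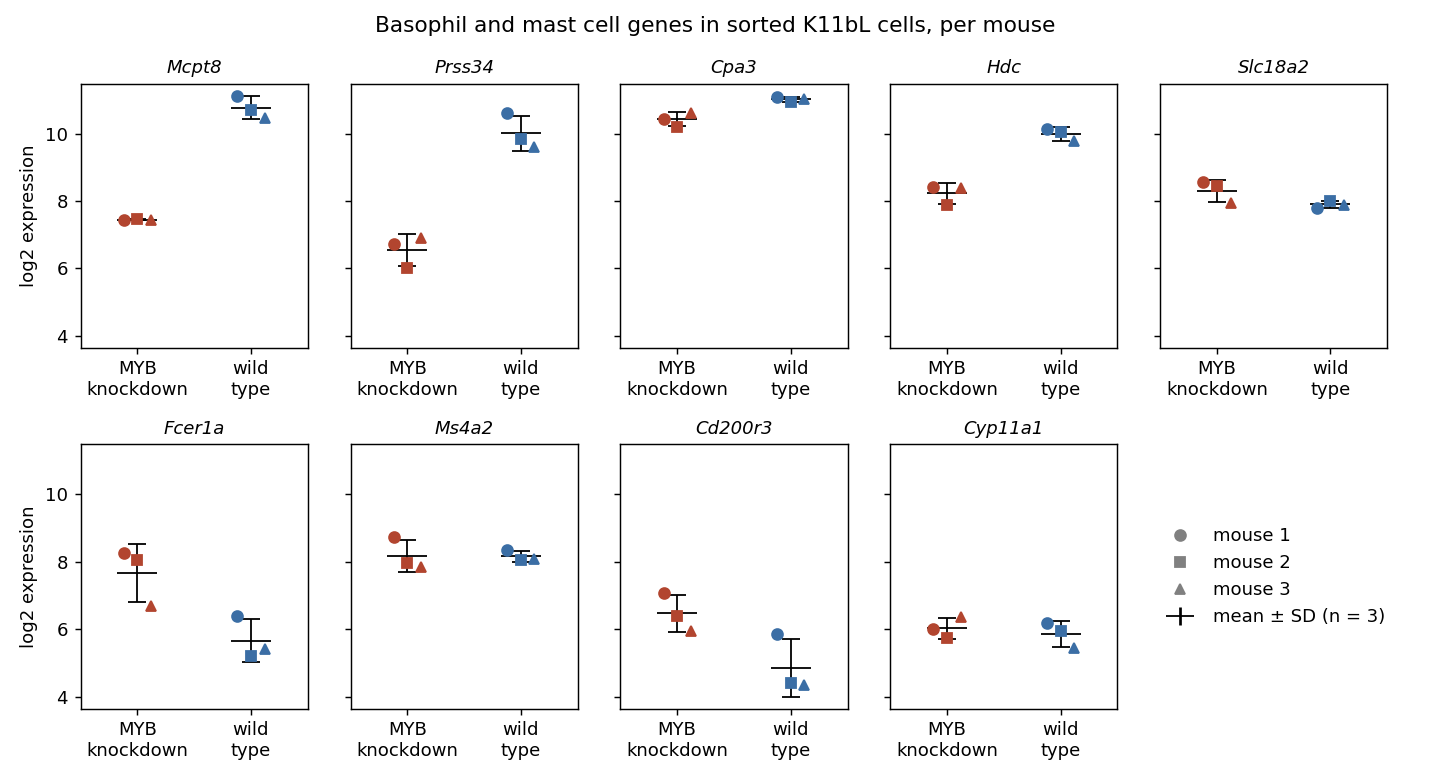
Log2 expression of the 9 analysed basophil and mast cell genes in each of 3 MYB knockdown mice (left, red) and 3 wild type mice (right, blue), with symbols for mouse number and bars for the mean ± SD. Mcpt8, Prss34, Hdc and Cpa3 lie lower in every knockdown mouse, Fcer1a and Cd200r3 lie higher, and the groups overlap for Slc18a2, Ms4a2 and Cyp11a1.

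Most probe sets of the proteases that mark mature tissue mast cells were too dim to be tested in either group. Those of Cma1, Mcpt1, Mcpt2, Mcpt4, Tpsb2 and Tpsab1, the chymases and tryptases of mast cell granules, had values between 2.97 and 5.10 over all 6 arrays, and all 6 were left out of the test as dim. Tpsg1, a further tryptase, was tested, with values of 5.47 to 5.53 in the knockdown mice and 5.25 to 5.53 in the wild type mice and a difference of 0.14 ± 0.10 (adjusted p = 0.45). Of the 12 tested genes of the mast cell protease and granule list, 3 were lower and 1 was higher, with a median difference of 0.05. Without the member Cpa3, 2 of 11 were lower and 1 was higher, against 5.48% and 6.12% of all genes tested. Ctsg, cathepsin G, which neutrophil precursors also make and which lies in the same gene cluster as Mcpt8, fell by 0.85 ± 0.08 (adjusted p = 0.000558). Srgn, the core protein of the granule proteoglycan serglycin, fell by 0.22 ± 0.06 (adjusted p = 0.0401). The call of Srgn was lost without any 1 of the arrays but that of knockdown mouse 3 (adjusted p from 0.0732 to 0.17) and after median centring (adjusted p = 0.191), without the filter on dim genes (0.0555) and without the trend (0.161). Rab27b, a GTPase of granule docking, rose by 1.32 ± 0.16 (adjusted p = 0.00126). Without wild type mouse 1 the list had 1 gene called lower, against 2.62% of all genes.

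Histamine is formed by Hdc, histidine decarboxylase, and pumped into granules by Slc18a2, the vesicular monoamine transporter VMAT2. Hdc had values of 8.42, 7.87 and 8.39 in the knockdown mice and 10.14, 10.06 and 9.76 in the wild type mice. Every knockdown mouse was below every wild type mouse by more than 1 log2 unit. Hdc fell by 1.76 ± 0.17 or 3.39-fold (adjusted p = 0.000462), and it kept its call under every alternative run.

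Slc18a2 was at 8.56, 8.43 and 7.94 in the knockdown mice and at 7.80, 8.0 and 7.89 in the wild type mice. Knockdown mice 1 and 2 were above all wild type mice and knockdown mouse 3 was among them. The difference was 0.41 ± 0.16 (adjusted p = 0.155). Without knockdown mouse 3 it was 0.60 (adjusted p = 0.00109) and with array weights it was 0.55 (adjusted p = 0.000703, the lowest of the alternatives, which reached 0.403). The within-mouse difference of Hdc minus Slc18a2 was lower in every knockdown mouse, with a difference of -2.18 between the groups (two-sided exact permutation test, p = 0.1 and 0.1 adjusted over 3 contrasts).

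Of the 9 tested genes of histamine, monoamine and lipid mediators, 3 fell, and limma called 0 higher, where 3 were higher at an unadjusted p under 0.05. Without the members Hdc and Slc18a2, 2 of 7 fell. Of all genes tested, 5.48% were lower and 6.12% higher. Hnmt, the methyltransferase that breaks down histamine, had values of 4.66, 4.57 and 4.25 in the knockdown mice and 7.73, 6.97 and 6.87 in the wild type mice. It thus lay near the lower quartile of the arrays in the knockdown only, and it passed the filter on dim genes only through its wild type values. It fell by 2.70 ± 0.22 or 6.48-fold (adjusted p = 0.000248), and the size of the fall is uncertain because of the dim knockdown values. Maoa, a monoamine oxidase, fell by 0.76 ± 0.17 (adjusted p = 0.0245), a call lost without any 1 wild type mouse (adjusted p = 0.105, 0.103 and 0.0777). The median of the list was -0.20. Without knockdown mouse 1, 2 or 3, 1, 1 and 2 of its genes were called higher (against 5.54%, 3.07% and 17.1% of all genes).

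**Figure D2:**
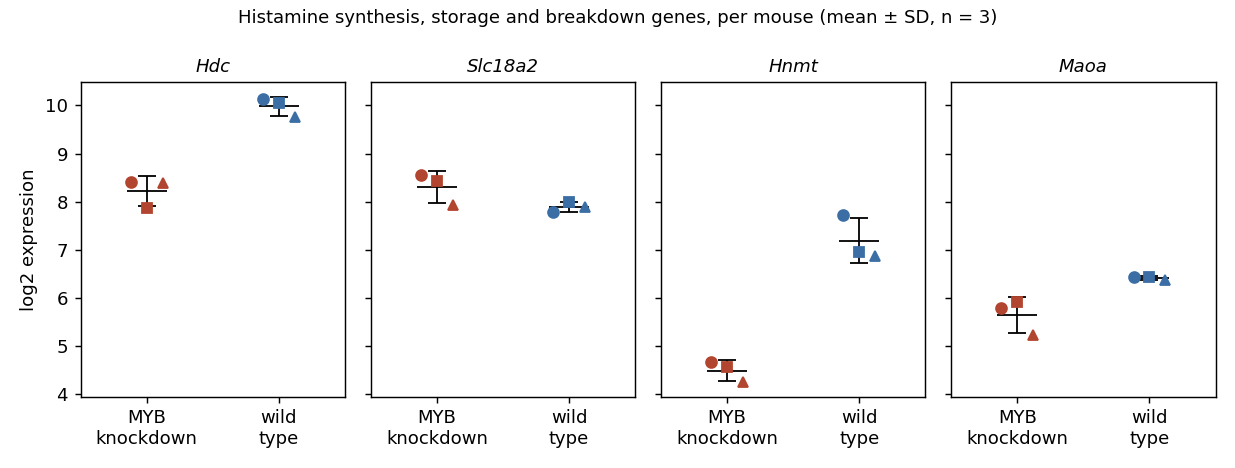
Log2 expression of Hdc (histamine synthesis), Slc18a2 (storage), Hnmt (histamine breakdown) and Maoa (monoamine breakdown) in 3 MYB knockdown mice (left, red) and 3 wild type mice (right, blue); circles, squares and triangles are mice 1, 2 and 3, and bars are the mean ± SD. Hdc, Hnmt and Maoa are lower in every knockdown mouse, and Slc18a2 overlaps between the groups.

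The chains of the IgE receptor did not move together. Fcer1a, the alpha chain that binds IgE, had values of 8.27, 8.05 and 6.67 in the knockdown mice and 6.38, 5.19 and 5.41 in the wild type mice. All knockdown mice were higher, but knockdown mouse 3 was only just above wild type mouse 1. The means were 7.66 ± 0.87 in the knockdown and 5.66 ± 0.63 in wild type (SD, n = 3 each). Fcer1a rose by 2.01 ± 0.44 or 4.02-fold (adjusted p = 0.0224). Relative to the wild type mean the rise was 6.12-fold and 5.25-fold in knockdown mice 1 and 2 and 2.02-fold in knockdown mouse 3. The call was lost without wild type mouse 2 (adjusted p = 0.105), wild type mouse 3 (0.0821) or knockdown mouse 2 (0.0789), with differences of 1.77 to 1.88. Over all alternatives it ran from 2.89e-05 to 0.105.

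Ms4a2, the beta chain, had values of 8.72, 7.95 and 7.84 in the knockdown mice and 8.34, 8.04 and 8.09 in the wild type mice. Knockdown mouse 1 was the highest of all 6 and the other knockdown mice were the lowest. The difference was 0.01 ± 0.22 (adjusted p = 0.986), and it was -0.26 without knockdown mouse 1. The shared gamma chain Fcer1g, which serves many other receptors of myeloid cells, differed by -0.12 ± 0.13 (adjusted p = 0.67). The within-mouse difference of Mcpt8 minus Ms4a2 was lower in every knockdown mouse, with a difference of -3.32 between the groups (two-sided exact permutation test, p = 0.1 and 0.1 adjusted over 3 contrasts).

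Of 16 tested genes of IgE receptor signalling 3 rose, and limma called 0 lower, where 2 were lower at an unadjusted p under 0.05. The median was 0.04. Without the members Fcer1a and Ms4a2, 2 of 14 rose, against 6.12% of all genes tested. Lat2, an adaptor of the receptor also called NTAL, rose by 0.86 ± 0.14 (adjusted p = 0.00597), and its relative Lat rose by 0.40 ± 0.10 (adjusted p = 0.0403). The call of Lat was lost without any 1 array except that of knockdown mouse 3 (adjusted p from 0.0878 to 0.184), with the replicate number as a block (0.0751) and without the filter on dim genes (0.0555). Without knockdown mouse 3, 7 genes of the list were higher and 3 lower, against 17.1% and 10% of all genes. Without knockdown mouse 2, wild type mouse 2 or wild type mouse 3, 1 was higher (against 3.07%, 2.21% and 2.56%). Without knockdown mouse 1, 1 was lower (against 5.83%).

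Cd200r3 is an activating receptor of mouse basophils and mast cells. It had values of 7.06, 6.40 and 5.96 in the knockdown mice and 5.84, 4.39 and 4.33 in the wild type mice. Every knockdown mouse was higher, with knockdown mouse 3 only just above wild type mouse 1. Wild type mice 2 and 3 lay below the lower quartiles of their arrays, so the size of the rise is uncertain. Cd200r3 rose by 1.62 ± 0.42 or 3.07-fold (adjusted p = 0.0412). The call was lost when knockdown mouse 1 (adjusted p = 0.0858), knockdown mouse 2 (0.101), wild type mouse 2 (0.167) or wild type mouse 3 (0.141) was left out. Over all alternatives the adjusted p ran from 0.000236 to 0.167.

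Its relatives in the same gene cluster moved the same way. Cd200r4 had values of 6.59, 6.06 and 6.18 in the knockdown mice and 4.34, 3.85 and 4.45 in the wild type mice, a rise by 2.06 ± 0.19 (adjusted p = 0.000365) with dim wild type values. Like Cd200r3, it passed the filter only through its knockdown values (wild type mean 4.22). Cd200r1, the inhibitory receptor of the family, rose by 1.09 ± 0.21 (adjusted p = 0.0138), and its adjusted p was 0.0546 without wild type mouse 2. Whether the probes separate these close relatives was not tested. Of the 7 tested genes within 200 kb of Cd200r3, 3 were called higher and 1 lower, against 6.12% and 5.48% of all genes tested. Cd200r1 and Cd200r4 are among those higher.

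Within 200 kb of Ms4a2, 2 of 8 tested genes were called higher and 2 lower, against 6.12% and 5.48% of all genes tested. Of those lower, 1 was its relative Ms4a3 (-0.97 ± 0.07, named after its values were seen). Of the 4 tested genes near Mcpt8 within the same distance, Ctsg was lower and Sdr39u1 higher (1.30 ± 0.17). Near Hdc 1 of 4 was called, Atp8b4 (-1.24 ± 0.18), and near Fcer1a 1 of 3, Ackr1 (0.96 ± 0.10). Sdr39u1, Atp8b4 and Ackr1 were named after their values were seen. Ackr1 passed the filter on dim genes only through its knockdown values (wild type mean 4.85). Within 200 kb of Prss34, Cpa3, Cyp11a1 and Slc18a2 limma called 0 of 12, 3, 8 and 4 tested genes, where 2, 1, 1 and 0 had an unadjusted p under 0.05.

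Cyp11a1, the mitochondrial enzyme that starts steroid synthesis from cholesterol, had values of 6.01, 5.73 and 6.35 in the knockdown mice and 6.19, 5.95 and 5.43 in the wild type mice. The groups overlapped throughout. The difference was 0.17 ± 0.22 (adjusted p = 0.696), and it was -0.04 without wild type mouse 3. Of 6 tested genes of steroid synthesis limma called 0, and 0 had an unadjusted p under 0.05. Their median was 0.14.

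**Figure D3:**
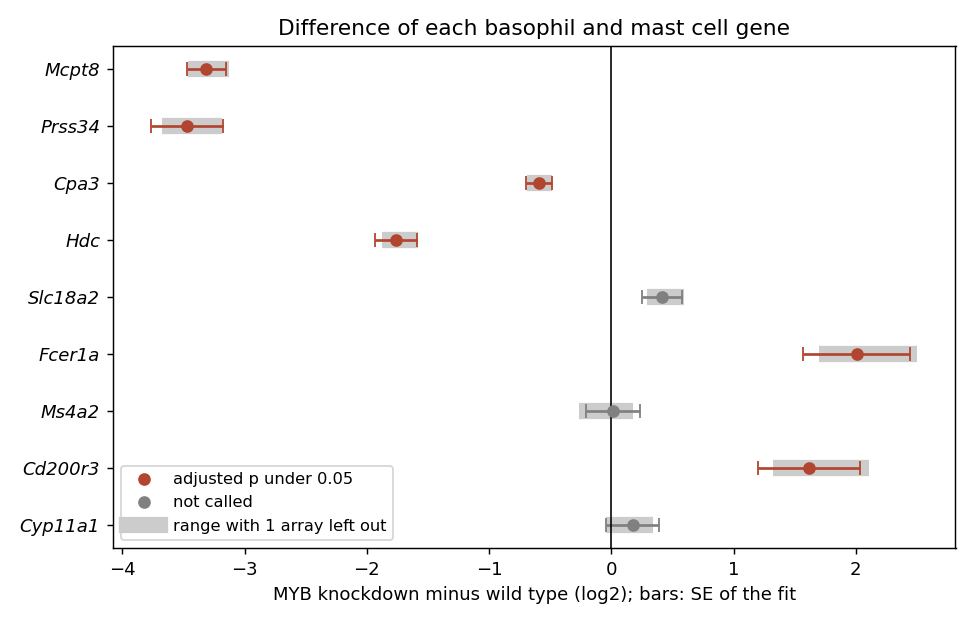
Difference of each of the 9 genes, as MYB knockdown minus wild type (log2), with the SE of the limma fit as bars and the range of the difference with 1 array left out as a grey band; red points have an adjusted p under 0.05. Mcpt8 and Prss34 lie below -3, Hdc at -1.76 and Cpa3 at -0.59, and Fcer1a and Cd200r3 lie at 2.01 and 1.62.

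Other genes of basophils were also split in direction. Of the 19 tested genes of the wider basophil list 6 rose and 4 fell, with a median of 0.22, and 3 of these genes are members already described. Of the other 16, 5 rose and 2 fell, against 6.12% and 5.48% of all genes tested. The 5 include Cd200r1 and Cd200r4, described above, and Gata2, which is also among the transcription factors below. Apart from the members, Ifitm1, an interferon-inducible membrane protein of basophils and progenitors, rose by 1.61 ± 0.14 (adjusted p = 0.000275) and Itga2, the integrin chain CD49b, rose by 0.86 ± 0.11 (adjusted p = 0.00202). Cd63, a granule membrane tetraspanin that appears on the surface when basophils degranulate, fell by 1.63 ± 0.19 (adjusted p = 0.00107), and Ccr3, a chemokine receptor that eosinophils share, fell by 1.28 ± 0.19 (adjusted p = 0.00381). Without wild type mouse 2, 3 genes of the list were higher, against 2.21% of all genes.

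Of the 14 tested genes of a list of transcription factors drawn up for basophils and mast cells, 6 were higher (against 6.12% of all genes), with a median of 0.39. Among them limma called 0 lower, where 1 was lower at an unadjusted p under 0.05. The list is not particular to these cells, and whether its factors act in them here was not tested. Gata2, needed for basophils and mast cells and also a factor of stem cells, had values of 9.41, 9.36 and 10.23 in the knockdown mice and 8.57, 8.65 and 8.62 in the wild type mice. It rose by 1.05 ± 0.21 (adjusted p = 0.0161), and without wild type mouse 1, 2 or 3 the adjusted p was 0.0776, 0.0676 and 0.0588. Ikzf2, Helios, rose by 1.33 ± 0.13 (adjusted p = 0.000484) and Nfil3 by 0.60 ± 0.10 (adjusted p = 0.00644). Runx1, Tal1 and Zfpm1 (FOG1), which are also factors of megakaryocytes, rose by 0.54 ± 0.11, 0.48 ± 0.10 and 0.90 ± 0.24 (adjusted p = 0.0188, 0.0194 and 0.0442). Each of these 3 calls was lost without any 1 wild type mouse (adjusted p from 0.0561 to 0.176), those of Tal1 and Zfpm1 also without knockdown mouse 2 (0.0685 and 0.0546), and that of Zfpm1 with quantile normalization (0.0505). In the same samples 6 of 7 megakaryocyte markers were higher, and their part in the rise of these factors was not tested. Mitf, a master factor of mast cells, differed by -0.09 ± 0.09 (adjusted p = 0.64). Without any 1 wild type mouse, 2 factors were called higher, against 2.14% to 2.56% of all genes.

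Of the 13 tested genes of IL-33, IL-3 and TSLP reception 3 rose and 1 fell, with a median of 0.22. Of all genes tested, 6.12% rose and 5.48% fell. Csf2rb2, the mouse beta chain that pairs with the IL-3 receptor, rose by 2.13 ± 0.11 (adjusted p = 2.45e-05), and the common beta chain Csf2rb rose by 1.17 ± 0.15 (adjusted p = 0.00161). Il3ra, the alpha chain that binds IL-3, differed by 0.20 ± 0.18 (adjusted p = 0.565). Il1rap, the partner chain of Il1rl1, fell by 0.82 ± 0.16 (adjusted p = 0.0133), a call lost without wild type mouse 1 (adjusted p = 0.0711) or wild type mouse 2 (0.0505). The adaptor Myd88 rose by 0.50 ± 0.08 (adjusted p = 0.0074). Without knockdown mouse 1 or 3, 2 and 3 genes of the list were lower, against 5.83% and 10% of all genes. Without wild type mouse 2 limma called 0 lower, where 3 were lower at an unadjusted p under 0.05.

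Markers of other cells in the marrow moved in the same samples, where 5.48% of all genes tested were lower and 6.12% higher. Of 7 tested eosinophil markers 5 were lower, with a median of -2.22, and their summed linear level was 556 to 1027 in the knockdown mice and 4154 to 4983 in the wild type mice. Those called were the granule proteins Epx, Prg2 and Prg3, the ribonuclease Ear6 and Ccr3, with differences of -4.14 to -1.28. Of 11 neutrophil markers 8 were lower, with a median of -1.35 and summed levels of 15622 to 21659 in the knockdown mice and 44802 to 45787 in the wild type mice. The 6 of smallest p were the granule proteases Elane, Prtn3 and Ctsg, the peroxidase Mpo, and S100a8 and Camp, with differences of -3.69 to -0.85. Of 7 megakaryocyte markers 6 were higher, with a median of 1.19 and summed levels of 3066 to 3527 in the knockdown mice and 1151 to 1271 in the wild type mice. They were the platelet chemokines Ppbp and Pf4, the integrin chains Itgb3 and Itga2b and the platelet receptor chains Gp5 and Gp9, with differences of 1.02 to 3.50. The part of such shifts in the changes of the basophil genes was not tested.

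**Figure D4:**
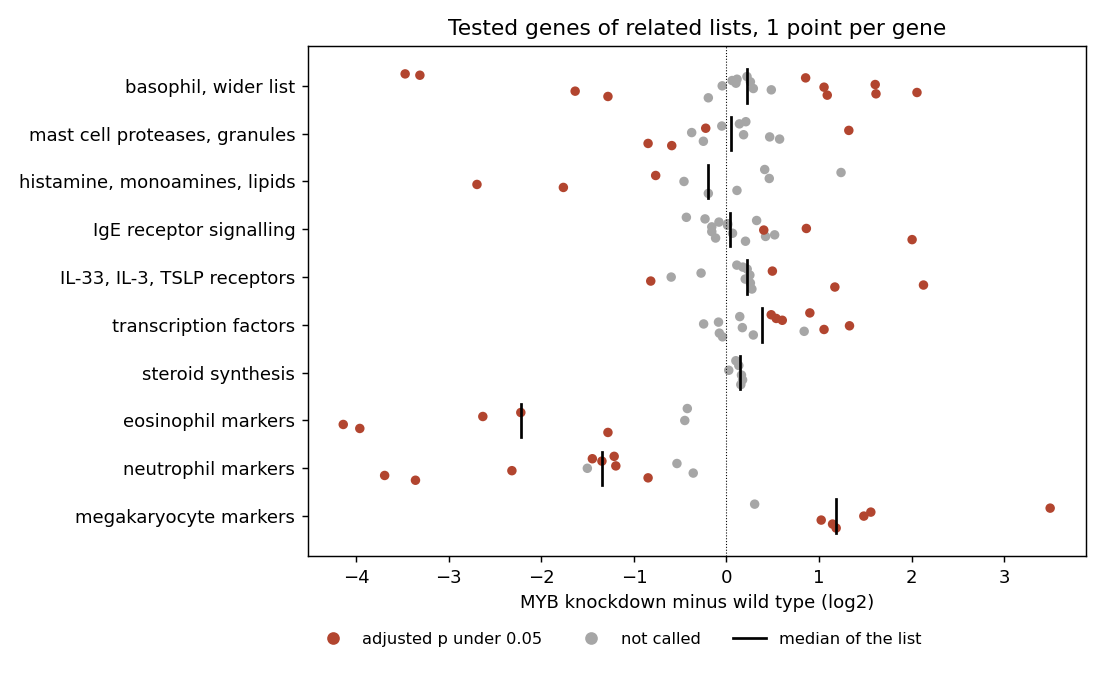
Difference of every tested gene of 10 lists, as MYB knockdown minus wild type (log2), 1 point per gene, with the median of each list as a black line; red points have an adjusted p under 0.05. Basophil genes are called on both sides, histamine genes on the lower side, transcription factors on the higher side, eosinophil and neutrophil markers on the lower side and megakaryocyte markers on the higher side.

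The 5 genes outside the set whose values over the 6 arrays lay nearest to those of Mcpt8, after each gene was centred on its own mean, were Prom1, Mgl2, Orm1, Ncam1 and Elane. Their mean absolute distance per array ranged from 0.18 for Prom1 to 0.23 for Elane on the log2 scale. Nearest to Cpa3 were Creb3l2, Ctns, Agpat2, Abcb10 and Pcyt1a, with distances from 0.02 to 0.06. With 3 arrays per group such a likeness rests mostly on the difference between the groups.

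The members were not spread evenly over the wild type mice. Wild type mouse 1 had the highest value of its group for 8 of the 9 members, where it was highest for 32.2% of all genes tested. Slc18a2 was the exception, with its lowest wild type value in that mouse. Knockdown mouse 1 had the highest value of its group for 5 members (31.9% of all genes) and the lowest for 0 (37.6%). Knockdown mouse 3 had the lowest value of its group for 5 members, among them Fcer1a and Cd200r3, and for 42.9% of all genes.

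On the arrays as a whole, Myb was lower in every knockdown mouse, at 11.26, 11.08 and 11.14 against 11.47, 11.46 and 11.46 in the wild type mice (-0.30 ± 0.06, adjusted p = 0.0196). That call was lost when knockdown mouse 2 or any 1 wild type mouse was left out (adjusted p from 0.0776 to 0.0967), after median centring (0.074) and without the trend (0.0662). Of the sort markers, Kit was at 10.22 ± 0.01 in the knockdown and 10.50 ± 0.10 in wild type (SD, n = 3 each), lower in every knockdown mouse, with a difference of -0.27 ± 0.08 (adjusted p = 0.06). It was called lower under 4 of 15 alternatives, without knockdown mouse 3 (adjusted p = 0.0147), with quantile normalization (0.0405), with the filter at 50% (0.0497) and with array weights (0.00423), and the adjusted p reached 0.265 under the others. Itgam (CD11b) was at 9.45 ± 0.39 in the knockdown and 9.84 ± 0.05 in wild type (SD, n = 3 each), with groups that overlapped and a difference of -0.39 ± 0.17 (adjusted p = 0.202). It was called lower without knockdown mouse 1 (adjusted p = 0.0239) and with array weights (0.0318), 2 of 15 alternatives, and the adjusted p reached 0.447.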

How the data were processed

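Total RNA of sorted bone marrow cells was measured on 1 Affymetrix whole-transcript array per mouse. The deposited table holds log2 values per probe set, a scale read from the values. Affymetrix Expression Console and limma are named, per the submitters' processing notes, and the normalization is not given in the sources used here. Symbols came from the platform annotation. Of 35556 probe sets 21789 had 1 symbol. The probe set of highest mean over the 6 arrays was taken per gene, and the dimmest 30% of genes were left out.

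Knockdown and wild type arrays were set against each other with limma 3.58.1 under R 4.3.3 (lmFit, then eBayes with a trend). The model had no covariates, and p-values were adjusted by Benjamini-Hochberg over 13956 genes, with a threshold of 0.05. Of these, 11.6% were called. Beside counts of 0, the number of genes at an unadjusted p under 0.05 is also given. The share of all genes at that level is not given here, so such numbers have no baseline. The fit was tested on simulated data. Differences are knockdown minus wild type. Arrays have no read depth, and their number limits the precision. Members and lists were chosen with earlier results of these data known. Named from each list were up to 6 called genes of smallest p, beside all members. Genes not called are named for their role, and neighbours of members after their values were seen. Alternatives were a replicate block, each array left out, 2 scalings, 2 filters, the mean of probe sets, other variance models, array weights and an adjusted p of 0.1. The promoter sequences are from RefSeq.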

Additional observations from a re-analysis of the deposited data

How the results depend on the processing

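The 4 members called lower were the same genes under all alternatives except without wild type mouse 1. There Cpa3 was lost and 3 were called, against 2.62% of all genes. The number called higher ranged from 0 to 3 with 1 array left out. It was 1 without knockdown mouse 1 (against 5.54% of all genes) and 3 without knockdown mouse 3 (against 17.1%). By limma it was 0 without knockdown mouse 2 (3.07% of all genes), wild type mouse 2 (2.21%) or wild type mouse 3 (2.56%). In these fits 2, 3 and 2 members were higher at an unadjusted p under 0.05, numbers given without the share of all genes at that level. The number called higher was 1 with a filter at 50% (8.43% of all genes), which removes Cd200r3, and 3 with array weights (16.8%). Over all genes, 1619 were called, 663 to 3792 with 1 array left out and 3912 with array weights. Fits without an array have fewer mice, and the cause of the other moves was not tested. Ms4a2 changed sign without knockdown mouse 1 (-0.26), wild type mouse 2 (-0.05) or wild type mouse 3 (-0.02), within a range of -0.26 to 0.18, and Cyp11a1 without wild type mouse 3, within a range of -0.040 to 0.34. Median centring moved the median difference of all genes to 0.09 and the split of calls to 593 lower and 1433 higher (70.7% higher, against 52.7% without it). The replicate numbers name different mice. Over all genes, deviations of same-numbered mice correlated at 0.29, -0.19 and -0.08, and the main fit did not pair them. With the replicate block 1472 genes were called, 4 members lower and 2 higher, and no member's call changed. The block took the SE of Cd200r3 from 0.42 to 0.15 and its adjusted p in limma from 0.0412 to 0.000236. For Fcer1a the SE went from 0.44 to 0.25 and the adjusted p from 0.0224 to 0.00111. Whether same-numbered mice shared a condition was not tested. The within-mouse contrasts kept their direction without any 1 array. The dim values of Cd200r3 and Hnmt near background limit the size of their changes.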
